A study of Mus musculus with 8 samples.

Results

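Glycolysis and lactate transport were followed through 32 mouse genes chosen by name, from the glucose carriers at the cell surface to the lactate carriers and the kinases that gate pyruvate. Of these, 30 had at least 1 array feature with a listed gene symbol, among 19087 genes in all, and they were read by 64 features. Gpi1 and Eno1 had no listed feature and were not analysed here. A gene with several features is given by the one that is brightest on average across the 8 arrays. RNA came from B splenocytes, the B lymphocytes of the spleen, of 4 wild type C57BL/6 mice and 4 lymphoma mice carrying c-myc and Cdk4(R24C), a CDK4 variant that INK4 inhibitors cannot bind. The polyA RNA was labelled with Cy3 and hybridised to 1-colour Agilent arrays, 1 array per mouse. The labels name neither the promoter that drives c-myc nor the ages of the mice, nor how the B cells were purified. No group carried c-myc or Cdk4(R24C) alone, so their contributions cannot be told apart.

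Glycolysis turns glucose into pyruvate. Glucose enters through facilitative carriers, is trapped by hexokinases, is committed by phosphofructokinase, and is split into trioses that are oxidised to pyruvate. Lactate dehydrogenase can then reduce pyruvate to lactate, which leaves the cell with a proton through monocarboxylate transporters. Inside the mitochondrion, pyruvate dehydrogenase instead converts pyruvate to acetyl-CoA. Many of these genes are known direct targets of MYC, which binds the E-box CACGTG, and of the hypoxia factor HIF-1, whose core site is ACGTG or GCGTG.

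The arrays were alike in overall signal: the 75th percentile of log2 intensity, to which each array was set, spanned 0.215 log2 units, and 50.2% to 52.9% of listed features exceeded the background bound. That bound, set for each array between 7.17 and 7.45, was the 95th percentile of 1110 features for olfactory and vomeronasal receptors. The wild type 1 array stood apart from its group. Over all genes it correlated at 0.963 on average with lymphoma and at 0.941 with its own group, whereas wild type 2 to 4 correlated better with their own group. Results that turn on it are therefore given with and without it. The 2 slides each held 2 arrays of both groups, with wild type at the first 2 positions and lymphoma at the last 2, so position and group cannot be told apart.

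With all 8 arrays, 0 of the 30 genes passed limma's test at 0.05 (Benjamini-Hochberg), a threshold that 2.09% of all genes passed. Before adjustment 9 genes had p under 0.05, which is 30% against 15.9% of all genes: 6 higher in lymphoma (background 8.19%) and 3 lower (background 7.73%). The 30 genes were chosen with earlier results of these data known, so shares set against all genes are descriptive. Only Ldhb had groups that did not overlap, where 9.99% of all genes did. The median difference, lymphoma minus wild type, was 0.18 log2 units over the 30 genes and 0.06 over all genes, and 20 of the 30 were higher in lymphoma (66.7%, against 56.7% of all genes). The wild type arrays were more scattered than the lymphoma arrays for 25 of the 30, where this held for 70.3% of all genes. In 15 of them wild type 1 was the highest control (26.3% of all genes) and in 14 wild type 2 was the lowest (26.8%).

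Without wild type 1, 8 of the 30 genes passed, against 8.15% of all genes. Higher in lymphoma were Hk2, Pfkfb3, Tpi1, Eno3, Slc16a1, Pdk2 and Pdha1 (background 4.28%), and Slc2a3 was lower (background 3.87%). Leaving out any of the other 7 arrays gave no passing gene. Of the 7 genes that passed as higher, wild type 1 lay within the lymphoma range in 6 and above it in Pdha1, and wild type 2 was the lowest control in all 7. This holds for the brightest feature of each gene. At the other features of Pfkfb3, Tpi1, Slc16a1 and Pdha1, wild type 3 or 4 was the lowest control. The calls below that rest on 3 controls are so named. Wild type 1 was singled out from these same values. Leaving out the control nearest to lymphoma can by itself widen differences and narrow the control spread. Over all genes 398 passed with all 8 arrays and 1556 without wild type 1. The p-values and fold changes from 3 controls are therefore descriptive and may be too favourable.

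**Figure D1:**
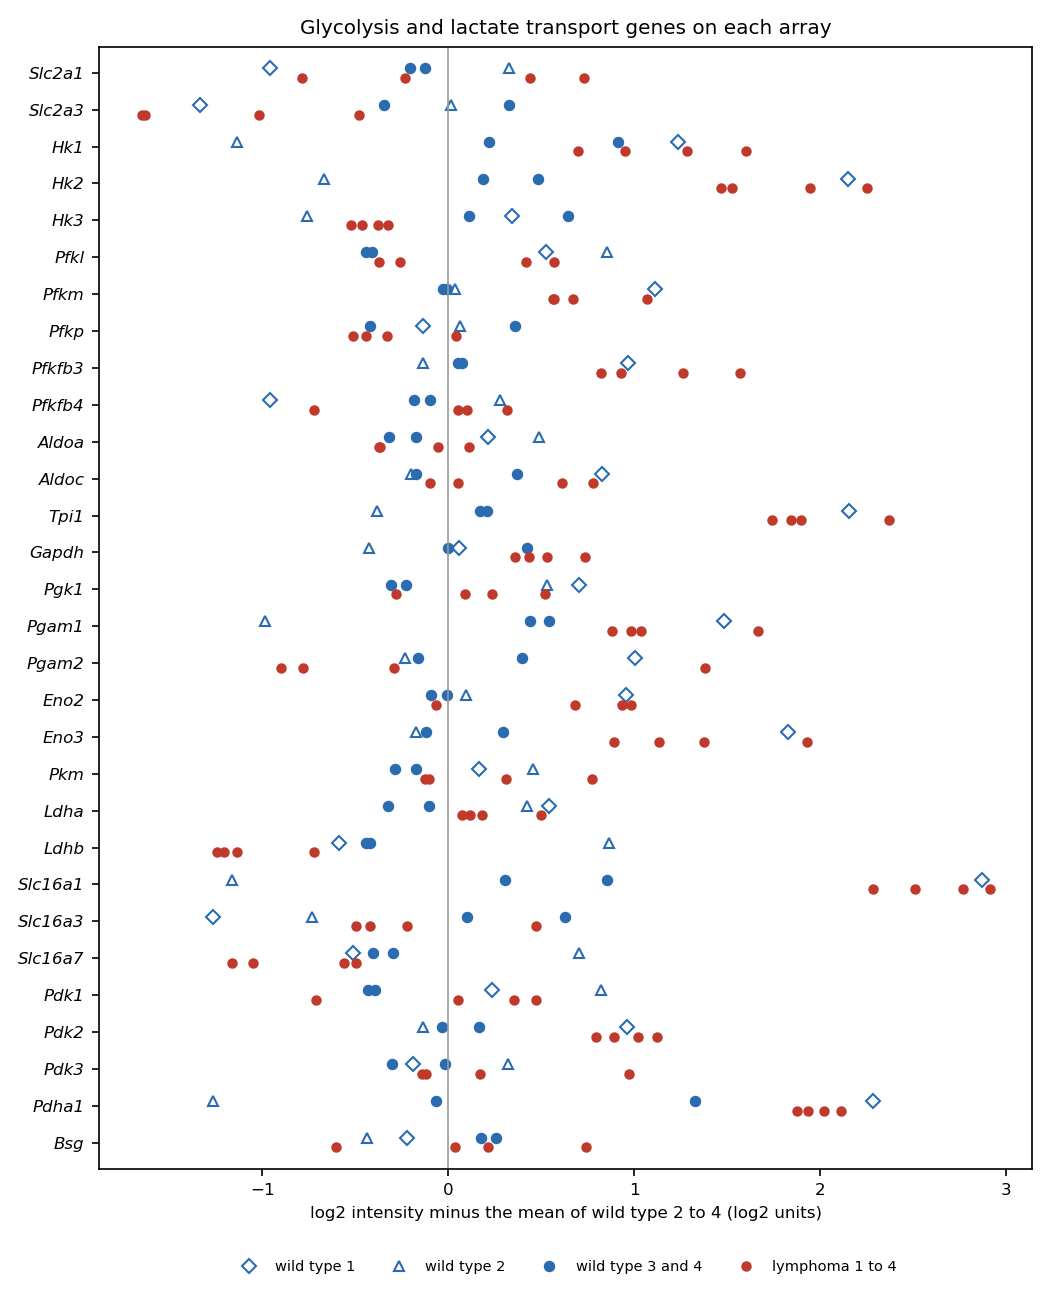
Log2 intensity of 30 genes on each array, as the distance from the mean of wild type 2 to 4 (horizontal axis, log2 units; 1 row per gene, 1 point per mouse). For Hk2, Tpi1, Eno3, Slc16a1 and Pdha1 the open diamond of wild type 1 sits among or beyond the red lymphoma points, while the other controls lie to the left.

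Glucose enters lymphocytes mainly through Slc2a1 (GLUT1) and Slc2a3 (GLUT3), a carrier of high affinity. Slc2a3 read 9.56, 10.91, 11.22 and 10.55 on wild type 1 to 4 and 9.25, 9.26, 9.88 and 10.42 on lymphoma 1 to 4. Wild type 1 lay within the lymphoma range, and the other controls were above every lymphoma array. The difference was -0.86 ± 0.37 (SE, 4 mice a group; adjusted p = 0.316), and -1.19 without wild type 1 (adjusted p = 0.0472, 2.29-fold lower). Both other Slc2a3 features were at background on 3 wild type and all 4 lymphoma arrays. Slc2a1 read 10.87, 12.15, 11.71 and 11.63 in wild type and 11.04, 11.60, 12.27 and 12.56 in lymphoma. Its groups overlapped and the difference was 0.28 ± 0.36 (adjusted p = 0.774), with the opposite sign on slide 1 alone.

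Hexokinases add the phosphate that keeps glucose inside the cell. Hk2, the inducible form that binds mitochondria, read 11.86, 9.04, 10.20 and 9.90 in wild type and 11.97, 11.66, 11.24 and 11.18 in lymphoma. The 4 lymphoma arrays lay close together, wild type 1 was among them, and the other 3 controls were lower. The difference was 1.26 ± 0.48 (adjusted p = 0.242), and 1.80 ± 0.31 without wild type 1 (adjusted p = 0.00608, 3.48-fold higher). Hk1, the form found in most tissues, read 10.63, 11.99 and 12.68 on wild type 2 to 4, with wild type 1 above them, and 13.37, 13.05, 12.46 and 12.72 in lymphoma. It overlapped between the groups, and 0.82 ± 0.44 did not pass (adjusted p = 0.425, 0.158 without wild type 1). Hk3, a form of myeloid cells, had 8.37, 7.27, 8.14 and 8.68 in wild type and 7.51 to 7.71 in lymphoma, a difference of -0.51 (adjusted p = 0.450). Beside the Hk3 values, the summed intensity of 8 monocyte and macrophage markers was 31746 to 51931 in wild type and 14479 to 19266 in lymphoma. The part of such cells in any result was not tested, and in bulk RNA fewer cells of a type and less RNA per cell cannot be told apart.

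Phosphofructokinase catalyses the committed step, and PFKFB enzymes make and remove its activator fructose 2,6-bisphosphate. Pfkfb3, whose product strongly favours making the activator, read 12.29, 11.18, 11.37 and 11.39 in wild type and 12.89, 12.58, 12.25 and 12.14 in lymphoma. Wild type 1 alone among the controls reached the lymphoma range. The difference was 0.90 ± 0.28 (adjusted p = 0.149), and 1.15 without wild type 1 (adjusted p = 0.0162, 2.21-fold higher). Of its other 2 features, neither passed with or without wild type 1; they differed by 0.40 and 0.55, the latter with all 4 controls at background. Pfkfb4 differed by 0.18 and turned to -0.06 without wild type 1. Among the subunits, muscle-type Pfkm read 9.13, 8.05, 8.01 and 7.98 in wild type and 9.08, 8.58, 8.68 and 8.58 in lymphoma. The 3 controls other than wild type 1 were below every lymphoma array, yet neither 0.44 nor, without wild type 1, 0.72 passed (adjusted p = 0.512 and 0.0836). Liver-type Pfkl (-0.04) and platelet-type Pfkp (-0.28) overlapped between the groups.

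Aldolase splits the hexose and triose phosphate isomerase, the product of Tpi1, interconverts the trioses. Tpi1 read 14.37, 11.84, 12.39 and 12.43 in wild type and 14.59, 14.12, 13.96 and 14.07 in lymphoma. Wild type 1 lay inside the lymphoma range, and the other 3 controls were all lower. The difference was 1.43 ± 0.45 (adjusted p = 0.152), and 1.97 ± 0.25 without wild type 1 (adjusted p = 0.000997, 3.90-fold higher), the lowest adjusted p among the 30 genes in that fit. A dim Tpi1 feature, between 7.23 and 7.68 on every array and at background on 2 lymphoma arrays, differed by -0.10. Aldoa, the main aldolase outside liver and brain, lay between 15.38 and 16.24 and at 80% or more of the highest signal on 4 arrays, so its difference of -0.22 may be compressed. Aldoc, the brain form, differed by 0.13 (adjusted p = 0.879).

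The lower steps yield ATP and NADH. Gapdh, the oxidising step and a common reference gene, was read by 1 listed feature, at background on 3 wild type arrays and 1 lymphoma array, so its 0.50 (adjusted p = 0.344) is no measure of a bright transcript. Pgk1 makes the first ATP of the pathway, and its 11 features differed by -0.06 to 1.11. The brightest gave -0.03 ± 0.29 (adjusted p = 0.975), while the mean of all 11 gave 0.44 (adjusted p = 0.397). Pgam1, the mutase of most tissues, read 14.92, 12.46, 13.88 and 13.98 in wild type and 15.11, 14.47, 14.32 and 14.42 in lymphoma. It was lower in wild type 2 to 4 than in every lymphoma array, and 0.77 did not pass (adjusted p = 0.439, 0.101 without wild type 1). Its muscle paralog Pgam2 differed by -0.40 with 2 lymphoma arrays at background.

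Enolase makes phosphoenolpyruvate and pyruvate kinase spends it. Eno3, known as the muscle enolase, read 12.89, 10.89, 11.36 and 10.94 in wild type and 12.99, 12.44, 11.95 and 12.20 in lymphoma. Only wild type 1 among the controls fell in the lymphoma range. The difference was 0.88 ± 0.41 (adjusted p = 0.360), and 1.33 without wild type 1 (adjusted p = 0.0151, 2.52-fold higher). Eno2, the neuronal form, was at background on 3 arrays of each group. Pkm, the pyruvate kinase outside liver and red cells, had 3 features that differed by 0.17, -0.25 and -0.57, none of which passed, and the files do not say which splice form each reads.

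Lactate dehydrogenase is a tetramer of LDHA, which favours lactate formation, and LDHB, which favours its oxidation. Ldhb was the only gene of the 30 whose groups did not overlap, with 7.78, 9.23, 7.92 and 7.94 in wild type and 7.65, 7.13, 7.16 and 7.23 in lymphoma. Wild type 2 was far above the other controls, and 2 lymphoma arrays were at background. The difference was -0.93 ± 0.32 (adjusted p = 0.188), -1.07 without wild type 1 (adjusted p = 0.0829) and -0.59 without wild type 2 (adjusted p = 0.216). Ldha gave different values by feature. The brighter read 15.55, 15.43, 14.69 and 14.91 in wild type and 15.51, 15.08, 15.19 and 15.13 in lymphoma, groups that overlapped, for a difference of 0.08 ± 0.25 (adjusted p = 0.911). The dimmer read 13.44, 12.63, 12.94 and 12.97 in wild type and 13.94, 14.23, 13.93 and 13.76 in lymphoma. Here every lymphoma array was above every control, wild type 1 included, and the difference was 0.97 ± 0.23 (adjusted p = 0.0615), or 1.12 without wild type 1 (adjusted p = 0.012).

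Promoters are shown for the members that carry these contrasts, 250 bases before to 50 after the start from RefSeq on GRCm38.p6, 5′ to 3′ on the strand of the gene. Capitals mark matches on either strand to the E-box CACGTG, to ACGTG, which lies within that E-box, and to GCGTG. Ldhb (chr6:142507908-142508207, minus strand) is shown for its separated groups. Ldha (chr7:46845554-46845853, plus strand), Slc16a1 (chr3:104638414-104638713, plus strand) and Tpi1 (chr6:124814109-124814408, minus strand) were chosen after their values were seen, as the partner of Ldhb and the genes with the largest differences.
Ldhb: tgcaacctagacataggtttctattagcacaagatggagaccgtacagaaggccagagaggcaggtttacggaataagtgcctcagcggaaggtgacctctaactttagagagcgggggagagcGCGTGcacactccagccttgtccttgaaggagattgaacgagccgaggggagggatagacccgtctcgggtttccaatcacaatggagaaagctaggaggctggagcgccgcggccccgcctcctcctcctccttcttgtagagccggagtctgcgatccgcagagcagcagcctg
Ldha: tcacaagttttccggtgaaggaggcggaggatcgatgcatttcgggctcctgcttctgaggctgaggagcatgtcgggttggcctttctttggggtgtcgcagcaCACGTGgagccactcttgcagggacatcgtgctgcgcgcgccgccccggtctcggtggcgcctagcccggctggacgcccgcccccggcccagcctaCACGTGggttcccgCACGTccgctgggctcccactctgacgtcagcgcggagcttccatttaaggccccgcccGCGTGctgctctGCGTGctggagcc
Slc16a1: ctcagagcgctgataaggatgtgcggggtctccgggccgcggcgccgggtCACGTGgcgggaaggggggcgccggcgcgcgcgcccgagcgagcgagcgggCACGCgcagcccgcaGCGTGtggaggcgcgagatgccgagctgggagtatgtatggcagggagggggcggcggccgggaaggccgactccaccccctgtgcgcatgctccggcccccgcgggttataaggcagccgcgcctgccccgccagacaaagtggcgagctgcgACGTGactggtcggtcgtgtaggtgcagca
Tpi1: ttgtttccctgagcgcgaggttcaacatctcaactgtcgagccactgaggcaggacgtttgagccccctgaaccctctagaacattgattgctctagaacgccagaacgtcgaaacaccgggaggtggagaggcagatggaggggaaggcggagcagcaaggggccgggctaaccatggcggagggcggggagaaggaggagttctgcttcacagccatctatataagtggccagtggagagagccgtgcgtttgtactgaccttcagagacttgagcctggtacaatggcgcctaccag
CACGTG lay 145 and 48 bases before the start in Ldha and 200 bases before it in Slc16a1, the Ldhb window held GCGTG alone, and the Tpi1 window held none of the 3 motifs. Of the 32 genes, 29 had a promoter in the RefSeq table (43 promoters). CACGTG was in 5 of these 43 (11.6%, against 7.15% of all 32851 promoters), in Ldha, Pdk2, Pfkfb3, Pfkm and Slc16a1. ACGTG was in 20 (46.5%, against 19.6%) and GCGTG in 23 (53.5%, against 32.4%). Windows of the same gene can overlap, as in Aldoa, Eno1 and Pfkm, so a site can be counted more than once. By gene, ACGTG was in 17 and GCGTG in 18 of the 29. The shares are descriptive. A match is a description of the letters and not a binding site.

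Lactate crosses the membrane through monocarboxylate transporters. Slc16a1 (MCT1), the carrier of most proliferating cells, had the largest difference of the 30 genes. It read 11.95, 7.92, 9.39 and 9.93 in wild type and 11.99, 11.37, 11.85 and 11.59 in lymphoma. Wild type 1 was in the lymphoma range and wild type 2 was lowest, so the control SD was 1.67 against 0.28 in lymphoma. The difference was 1.90 ± 0.63 (adjusted p = 0.178), and 2.62 ± 0.41 without wild type 1 (adjusted p = 0.00317, 6.15-fold higher). Its other 2 features differed by 0.71 and 0.07, the latter at background on 2 arrays of each group, and neither passed in either fit. On wild type 2 the feature with 0.71 read 10.44, within its lymphoma range of 10.31 to 11.06, where the brightest read 7.92. Slc16a3 (MCT4), the exporter typical of glycolytic tissue, differed by 0.15 ± 0.39 (adjusted p = 0.899) with 1.02 on slide 1 alone and -0.72 on slide 2 alone. It was at background on wild type 1 and 2, both on slide 1. Slc16a7 (MCT2), a carrier of high affinity, read 8.36, 9.57, 8.57 and 8.46 in wild type and 8.31, 7.82, 7.71 and 8.38 in lymphoma. Its groups overlapped slightly, and -0.69 ± 0.30 did not pass (adjusted p = 0.313). Bsg (basigin), the chaperone that brings MCT1 and MCT4 to the surface, differed by 0.15 (adjusted p = 0.856).

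Pyruvate dehydrogenase is switched off by the PDK kinases, which phosphorylate its E1 alpha subunit, the product of Pdha1. Pdha1 read 12.59, 9.05, 10.24 and 11.64 in wild type and 12.43, 12.33, 12.25 and 12.19 in lymphoma. The lymphoma arrays spanned little while the controls ran from far below them to above them. The difference was 1.42 ± 0.59 (adjusted p = 0.288), and 1.99 without wild type 1 (adjusted p = 0.0271, 3.97-fold higher), but the second feature of the gene differed by 0.09. On that second feature wild type 2 was the highest control, at 10.97. Pdk2 read 7.34, 6.24, 6.54 and 6.35 in wild type and 7.50, 7.40, 7.17 and 7.27 in lymphoma. Wild type 2 to 4 and lymphoma 3 were at background. The fit without wild type 1 passed (0.96, adjusted p = 0.0202), but the size of that difference was not measurable. Pdk1, a known target of HIF-1, differed by -0.02 and Pdk3 by 0.27, and neither passed in any fit. The second Pdk1 feature, above background on all arrays, differed by 0.77 (adjusted p = 0.39). Without wild type 1 that feature differed by 1.00 (adjusted p = 0.177).

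**Figure D2:**
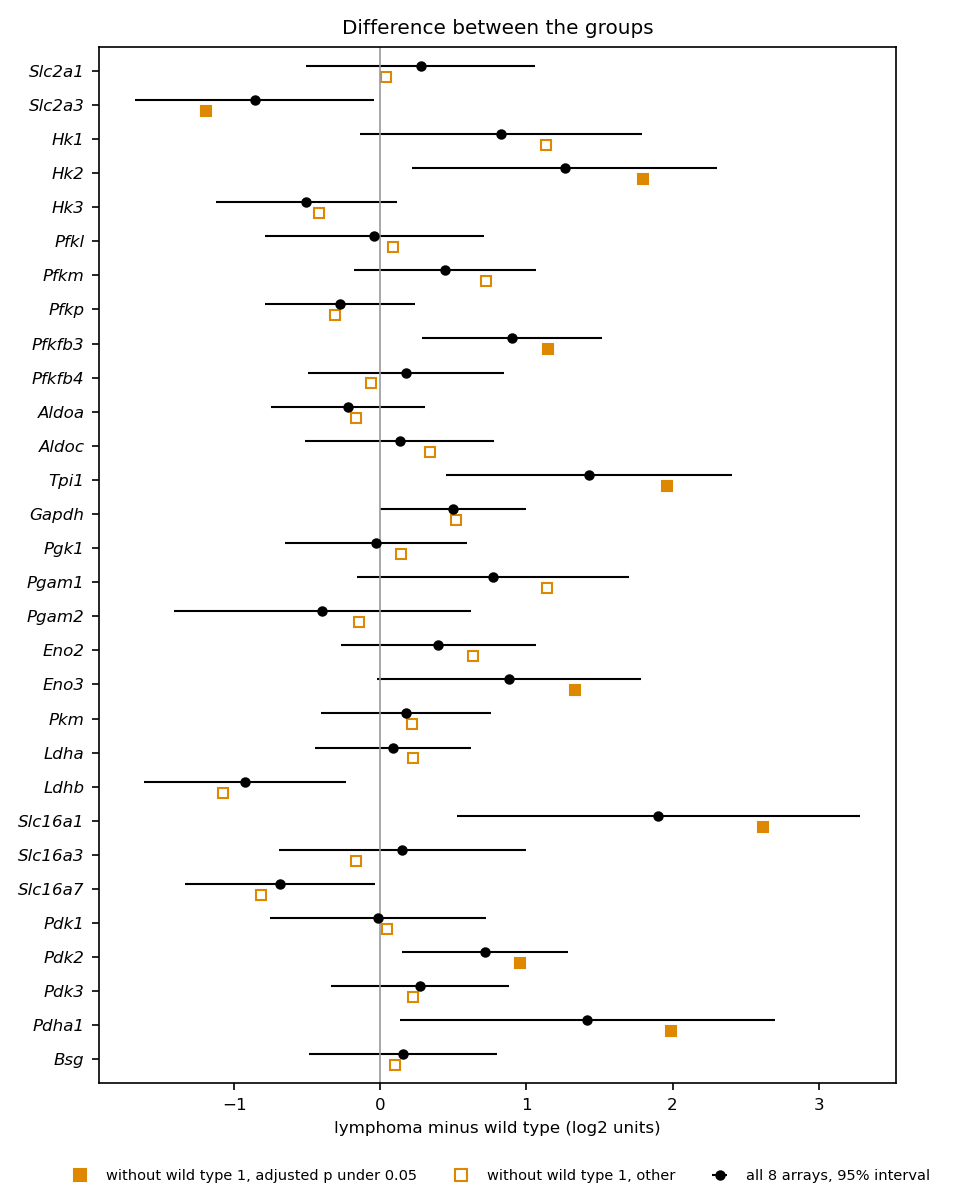
Difference, lymphoma minus wild type, for 30 genes (horizontal axis, log2 units). Black points and bars are the estimate and 95% interval from all 8 arrays, and squares are the estimate without wild type 1, filled in the 8 genes that passed; Slc16a1 lies furthest right at 1.90 and 2.62.

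Within slide 2, which does not hold wild type 1 or 2, Hk2 (1.17, adjusted p = 0.043), Tpi1 (1.60, adjusted p = 0.0202) and Slc16a1 (2.06, adjusted p = 0.0227) passed, against 6.75% of all genes. On slide 1 none of the 30 passed, nor did any other gene, and the same 3 genes differed by 1.36, 1.25 and 1.75. On slide 1, wild type 1 was above lymphoma 2 for all 3 genes and wild type 2 was below both lymphoma arrays. The 3 of 30 on slide 2 are 10%, near that background. Array weights, which let limma count noisy arrays for less, gave 5 passing genes (Hk2, Pfkfb3, Tpi1, Slc16a1 and Pdk2, background 7.55%). The weights were estimated from these same arrays, so that fit is not a separate line of evidence.

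Isoenzymes were compared as the difference of their log2 values within an array, which asks whether both changed alike. Of 18 measured pairs, 4 reached the smallest p that an exact two-sided permutation test of 4 against 4 arrays allows, 0.0286, which is 0.1286 after adjustment over the 18, so no pair passed. That p is reached only where no lymphoma array overlaps a control, so the separation of these 4, wild type 1 included, is the same fact. The pairs of Hk1 and of Hk2 with Hk3 share the Hk3 values and are not separate results. Hk2 minus Hk3 was 3.49, 1.77, 2.06 and 1.22 in wild type and 4.46, 3.96, 3.68 and 3.53 in lymphoma, a shift of 1.77. Hk3 was at background on wild type 2, so the values of that array against Hk3 are bounds. Hk1 minus Hk3 shifted by 1.33 and Slc2a1 minus Slc2a3 by 1.14. Ldha minus Ldhb was 7.77, 6.20, 6.76 and 6.96 in wild type and 7.86, 7.96, 8.03 and 7.90 in lymphoma. It moved by 1.01, and wild type 1 lay just below the lymphoma arrays. Ldhb was at background on lymphoma 2 and 3, so the spread among lymphoma arrays is not a measured one. Slc16a1 minus Slc16a7 moved most, by 2.59 (exact permutation p = 0.0857), and wild type 1 overlapped lymphoma. The choice of test mattered: limma on the same within-array differences, added after the data were seen, passed 4 pairs, Slc2a1 with Slc2a3, Hk1 with Hk3, Hk2 with Hk3, and Slc16a1 with Slc16a7.

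**Figure D3:**
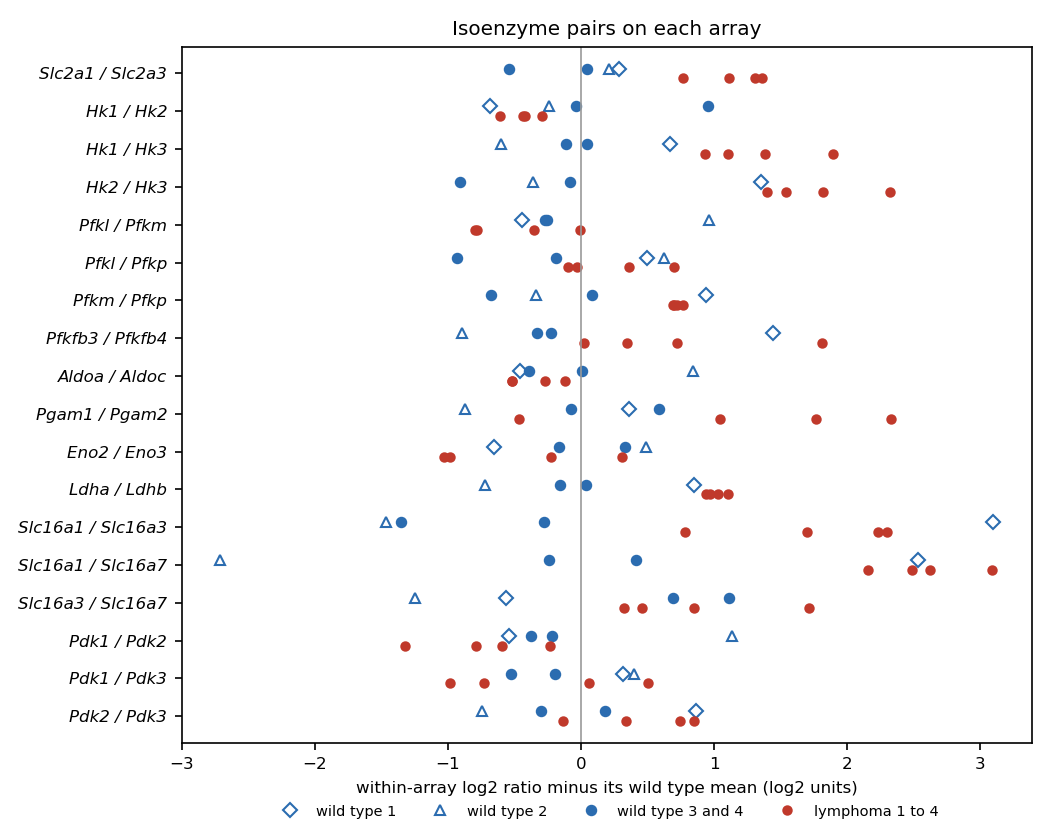
Log2 difference between the isoenzymes of 18 pairs within each array, as the distance from the wild type mean of the pair (horizontal axis, log2 units; 1 point per mouse). For Slc2a1 / Slc2a3, Hk1 / Hk3, Hk2 / Hk3 and Ldha / Ldhb all red lymphoma points lie right of all controls.

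Features of the same gene did not always move together. For 16 genes with several features there were 34 features besides the brightest, and 16 of them had the sign of the brightest. Of the 18 with the other sign, 9 were Pgk1 features set against a brightest value of -0.03, and 11 of the 34 were at background on 4 or more arrays. None of the 64 features passed with all arrays (1.65% of all listed features), and 10 passed without wild type 1 (6.87%). These were the brightest features of the 8 genes named above, the dimmer Ldha feature, and a Pgk1 feature with 1.62 (adjusted p = 0.00219). Hk1 had 6 features with differences of -0.02 to 0.82. Wild type 2 was the lowest control at its brightest feature (10.63) and the highest control at the next brightest (8.63). Probe sequences were not used here, so which transcripts or related copies each feature reads was not tested.

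**Figure D4:**
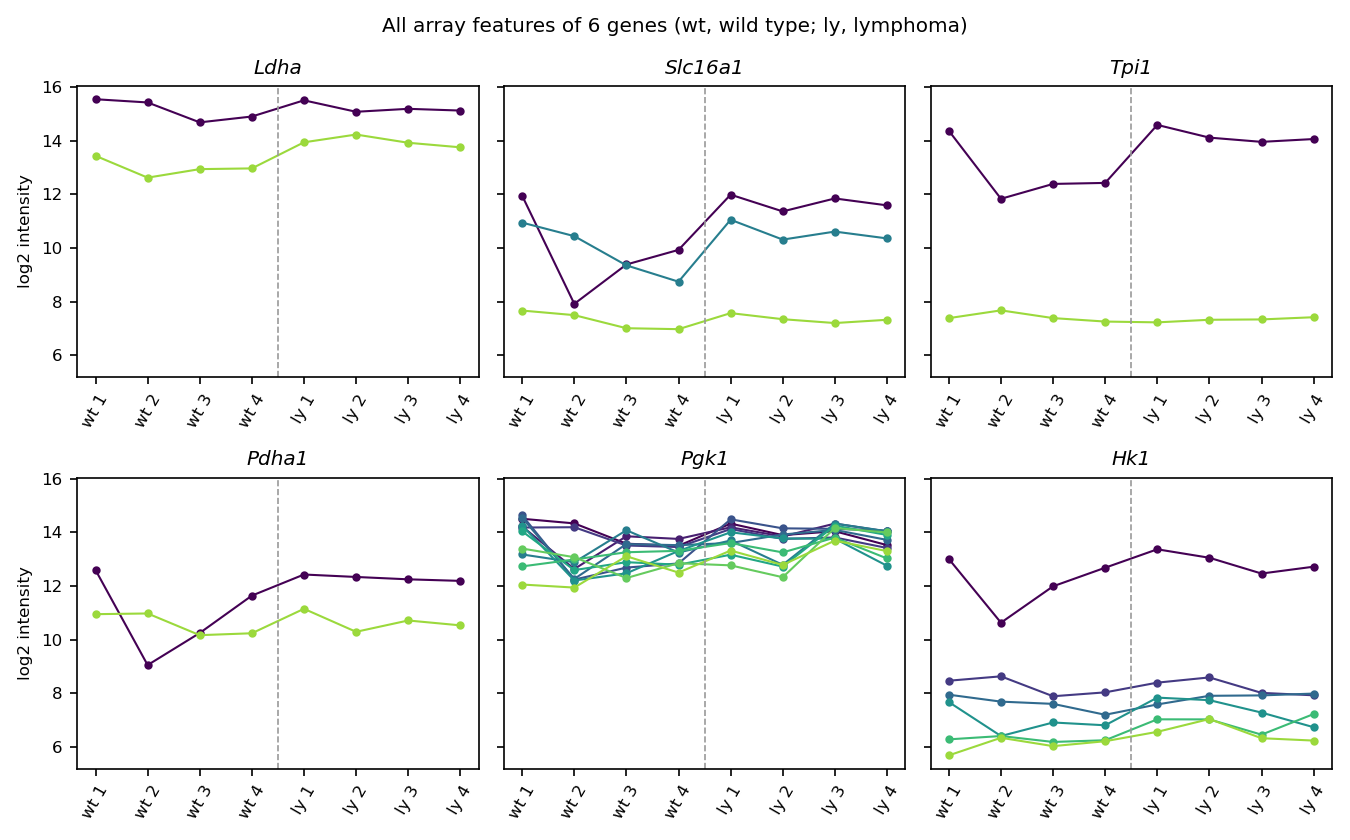
Log2 intensity (vertical axis) of every listed feature of 6 genes on the 8 arrays; each line joins the values of 1 feature and implies no order of mice. In Slc16a1, Tpi1 and Pdha1 the brightest feature is lower in wild type 2 to 4, while the dimmest feature of the gene varies far less. The dimmest feature is at background on 2 arrays of each group for Slc16a1 and on 2 lymphoma arrays for Tpi1, which limits the spread it can show. That of Pdha1 is above background on all arrays.

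Neighbouring pathways gave 1 passing gene. Of 19 listed other glycolysis and gluconeogenesis enzymes none passed, with G6pc3, a glucose-6-phosphatase, differing most (0.79, adjusted p = 0.222). None of 12 other carriers passed, and Emb, the chaperone of MCT2, differed by 1.00 (adjusted p = 0.414) and by 1.57 without wild type 1 (adjusted p = 0.0248). None of 9 genes of pyruvate entry into mitochondria passed (Dld, the E3 subunit, 0.73, adjusted p = 0.434). All 7 listed pentose phosphate genes were higher in lymphoma, where 56.7% of all genes were, with a median of 0.32 against 0.06 over all genes. None of them passed (Rpe, 0.65, adjusted p = 0.338). Tktl1 was at background on all arrays, so its direction was not measurable, and Taldo1 differed by 0.11. None of 16 regulators passed, and Epas1 (HIF-2 alpha) differed by -0.70 (adjusted p = 0.153).

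Of 15 listed hypoxia genes outside glycolysis, Bnip3, a mitophagy receptor, fell. It read 9.16, 9.62, 10.32 and 10.15 in wild type and 7.76, 8.01, 8.46 and 7.78 in lymphoma, and the groups did not overlap. The difference was -1.81 ± 0.29 (adjusted p = 0.0141, 3.5-fold lower; background 1.27%). The call was lost without wild type 3 (adjusted p = 0.0563), wild type 4 (0.0625), lymphoma 1 (0.0516) or lymphoma 4 (0.0713). Without wild type 1, Mxi1, a MYC antagonist, also passed as higher (2.18, adjusted p = 0.000729). So did Car12, a carbonic anhydrase, but wild type 2 to 4 were at background there, so the measurable difference was at least 2.32-fold (adjusted p = 0.00272). Vegfa, named after its values were seen, had the largest difference of the list and did not pass. It read 11.30, 10.47, 6.91 and 11.04 in wild type and 6.45 to 6.83 in lymphoma. Wild type 3 and all 4 lymphoma arrays were at background, so the size of its -3.23 was not measurable (adjusted p = 0.0588, 0.0528 without wild type 1). In all, 7 of the 15 were higher and 8 lower.

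Markers of the cell types a spleen sample could hold were read in the same fits, and their part in the results above was not tested. None of 6 B cell markers passed, and their summed intensity was 92036 to 151225 in wild type and 114803 to 162192 in lymphoma. The brightest of them, Cd79b and Ms4a1, were near the highest signal on 7 and 5 arrays, so differences in that sum may be compressed. Of the 6, 4 were higher in lymphoma and 2 lower. Cd22 differed most, by -1.03 (adjusted p = 0.0854), and its groups did not overlap. Of 8 monocyte and macrophage markers, all lower in lymphoma, Lyz2, Mpeg1, Fcgr1 and Vcam1 passed, and did so without wild type 1 too. Of 8 granulocyte markers S100a8 passed as lower, with Elane at background throughout, and the sums were 7710 (wild type 1) to 19303 against 1904 to 5626. Without wild type 1, S100a8, S100a9, Camp and Csf3r passed as lower. All 7 erythroid markers were lower and none passed, with sums of 9911 to 70376 against 6572 to 21428; wild type 1 had the lowest control sum. Without it, Hba-a1, Hba-a2, Hbb-bt and Alas2 passed as lower. None of 7 T cell markers passed. Of these 5 were lower in lymphoma and 2 higher, with a median difference of -0.20, and Cd4 was at background on all arrays. Cd8a, at background on 2 arrays of each group, differed by -0.03. Cd8b1, singled out after its values were seen, read 13.27 on wild type 1, 8.26 to 8.59 on the other controls and 11.70 to 12.88 in lymphoma. Wild type 1 was above every lymphoma array, and without it Cd8b1 passed as higher (3.88, adjusted p = 3.29e-05, 14.7-fold).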

How the data were processed

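Per the labels, polyA RNA (0.5 µg) from B splenocytes of 4 wild type and 4 lymphoma mice was labelled with Cy3 and hybridised to Agilent arrays. The authors deposited log2 intensity values for 45220 features. How they corrected background and normalized is not given in the sources here. Gene symbols came from the platform annotation: 33709 features were listed there, 56 of them with several symbols, from which no gene was named, and 11511 were not listed and not used.

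Arrays were aligned at the 75th percentile of their listed features. Groups were compared with limma 3.58.1 in R 4.3.3 (lmFit and eBayes, group only, two-sided tests). P-values were adjusted by Benjamini-Hochberg across the 33709 features, with a threshold of 0.05. Calls were counted over 19087 genes, each at its brightest feature. Differences are log2, lymphoma minus wild type, and ± is the standard error. Isoenzyme pairs were tested by exact permutation over 70 assignments. The limma step was tested on simulated data. No label says more about the independence of the mice than 1 array each. The number of arrays limits precision.

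All 32 members were to be named, with called genes of the other lists, or else the gene with the largest difference. Members and lists were chosen with earlier results of these data known. Alternatives were scaling, filters, array weights, slide and replicate blocks, feature choice and leaving out arrays.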

Additional observations from a re-analysis of the deposited data

Results flagged for a closer look

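Among 60 groups of 4 arrays (30 genes in 2 groups), 2 held a sample far from the others by Dixon's criterion. Chance gives about 1 in 20 such groups. Pfkm on wild type 1 read 9.13, where the next control read 8.05 and the lowest 7.98, a gap of 0.944 of the range. Ldhb on wild type 2 read 9.23, where the next control read 7.94 and the lowest 7.78, a gap of 0.887 of the range.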

How the results depend on the processing

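The count of the 30 genes that passed was 0 to 8 when each array was left out, 5 with array weights, 3 within slide 2 and 0 in every other alternative run. Over all genes the count was 398, 74 to 1556 with each array left out, 1441 with array weights, 0 within slide 1 and 1288 within slide 2. The count for the other pathway lists was 1, and 0 to 4 with each array left out, 3 without the dimmer 50% of features, 2 with trend and robust eBayes, 6 with array weights, 2 with the slide as a block, 0 within slide 1 and 5 within slide 2. Of the pairs, 0 passed, 4 by limma on the pair differences and 1 with the slide as a block, Hk2 with Hk3; 7 arrays allow no exact p below 0.0571, so leaving out arrays gives pair values with no count. Same-numbered arrays correlated by 0.175, -0.038, 0.133 and -0.020, on a scale other than that of the whole-array correlations above. The best-matching lymphoma array bore the same number for wild type 1 and 3 but not for 2 and 4. These values do not settle whether the numbers pair the mice. With a replicate block 0 of the 30 genes, 3 genes of the other lists and 4 pairs passed. Over 626 values of the 30 genes under alternatives, 35 took the other sign. They fell in 10 genes that passed in none of these values and whose brightest feature differed by at most 0.28 in the main fit. Dimmer single features of Ldha and Pgk1, given above, are not among these values and did pass without wild type 1. With each array left out 9 of the 10 ranged from -0.0154 to 0.3391 for Aldoc, -0.0622 to 0.3863 for Bsg, -0.0673 to 0.2204 for Ldha, -0.1809 to 0.2375 for Pdk1, -0.062 to 0.3978 for Pfkfb4, -0.2343 to 0.1979 for Pfkl, -0.1921 to 0.1439 for Pgk1, -0.0134 to 0.3108 for Pkm and -0.1663 to 0.4642 for Slc16a3. The values of other sign were, within slide 2, Aldoc -0.1207, Bsg -0.0905, Pdk1 0.2929, Pfkl 0.1107, Pgk1 0.2453 and Slc16a3 -0.7228, and within slide 1 Ldha -0.1943 and Slc2a1 -0.1924. With array weights these were Pdk1 0.2541, Pfkl 0.3247, Pgk1 0.2394 and Slc16a3 -0.1605. With the mean of all features these were Pdk1 0.3778, Pgk1 0.4373, Pkm -0.215 and the pair of Pdk1 and Pdk3 0.0339, and with quantile normalization Pdk1 0.0029. The cause was not tested.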
